A study of Mus musculus with 8 samples.

Results

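The sites described here are regions of open chromatin that were listed as DNase I hotspots only in cells with induced dominant-negative Snf2h and in no other library of the series. A hotspot is a stretch of the genome that DNase I cuts more often than its surroundings. Hotspots of the 8 deposited lists were merged into 1 site if they shared 1 bp or more, and a merged site was kept when hotspots came only from DNSnf2h cells without tetracycline. This gave 11443 of 99999 merged sites. The sites were thus chosen by their peak density in the induced library and by falling short of a listing in the other 7, and these values are given as a description without a test.

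Snf2h is an ATPase of the ISWI family of remodeling complexes, which slide nucleosomes along DNA and space them evenly. DNase I cuts preferentially where nucleosomes are displaced, so hotspots mark promoters, enhancers and sites bound by factors such as CTCF, whose binding is known to depend on Snf2h activity in mouse cells.

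DNase-seq was done on 3134 cells, a mouse mammary epithelial line, and on 3 lines derived from it, each in 1 library without and 1 library with tetracycline. DNSnf2h cells without tetracycline carried an induced human SNF2H with an N-terminal FLAG tag, in which lysine 211 was replaced by arginine, and DNSnf2h cells with tetracycline carried the same construct repressed. DNCHD4 cells without and with tetracycline carried an induced or a repressed FLAG-tagged mouse Chd4 with lysine 250 changed to cysteine, and DNBrg1 cells an induced or a repressed dominant-negative Brg1. The parental 3134 cells were labelled as without and with tetracycline and had no dominant-negative protein. The SNF2H and Chd4 constructs were carried by a retroviral vector into 3134 cells that hold the tetracycline transactivator, and the induced state followed 48 hours without tetracycline. Each group is a single library, so differences lack any check against replicates and p-values are left out. No gene is named for a site, because no annotation of build mm9, on which the lists are given, was used here.

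The 8 lists held 24890 to 78093 hotspots, and each started at its own lowest density, called its floor here. The floor was 8.06 in DNSnf2h cells without tetracycline and 8.03 with it. It was 9.19 and 16.4 in DNBrg1 cells without and with tetracycline, 5.09 and 8.05 in DNCHD4 cells, and 10.04 and 13.02 in parental cells. Total depth is unknown, but peak densities of a library were whole multiples of 1 step, so the floor of the DNSnf2h list without tetracycline corresponded to 40 tags.

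Sites listed nowhere else made up a large part of the induced DNSnf2h list. They were 11443 of its 32616 sites, or 35.1% (95% Wilson interval 34.6 to 35.6, counting error only). In DNSnf2h cells with tetracycline 1865 of 23914 sites were listed in no other library, or 7.8%. The share was 4.32% and 1.17% in DNBrg1 cells without and with tetracycline, 41.6% and 8.37% in DNCHD4 cells, and 1.09% and 0.32% in parental cells. In each of the 4 lines the library without tetracycline thus had more such sites than the library with it, the parental line included. Across the induced DNSnf2h list, sites listed in 1 library and sites listed in all 8 were the most numerous classes, at 11443 and 12592, and each class in between held 636 to 3832 sites. Only 111 sites were listed in both DNSnf2h libraries and in no other, at a median density of 10.5 without and 9.90 with tetracycline.

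The sites were weak. Their peak density ran from 8.06 to 24.99, with a median of 9.07 and quartiles of 8.46 and 9.88. The other 21173 sites of the same list had a median of 15.1, with quartiles of 10.9 and 25.2. The median was 1.125 times the floor for the sites listed nowhere else and 1.875 times for the others. In tags the median was 45, with an exact Poisson interval of 32.8 to 60.2 that includes the 40 tags of the floor. The lower end of this interval was above 40 tags for 1382 of the 11443 sites (12.1%), all with at least 54 tags. It was above 40 tags for 16231 of the 21173 other sites (76.7%). Both shares follow from the tag counts alone. Of the sites listed nowhere else, only 485 (4.24%) reached 1.5 times the floor, 30 reached 2 times and 1 reached 3 times. Of the others, 67.2% reached 1.5 times, 46.7% reached 2 times and 26.8% reached 3 times. The choice of the sites used density, so these shares are given side by side only.

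The share of induced hotspots that were listed nowhere else was lower at each higher class of density. Between 1 and 1.1 times the floor, 79.5% of the sites were listed in no other library. The share was 51.1% between 1.2 and 1.3 times, 13.5% between 60 and 69 tags, which starts at 1.5 times the floor, and 0.684% between 2 and 3 times. From 4 times the floor upwards it was 0 of 3582 sites, with an upper Wilson limit of 0.107%. The same pattern near the floor was seen in DNSnf2h cells with tetracycline, where the sites listed nowhere else had a median of 1.09 times the floor of that list and 4.45% reached 1.5 times. The sites listed only in DNCHD4 cells without tetracycline, the longest such set, had a median of 1.54 times their floor, and 50.7% of them reached 1.5 times.

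**Figure D1:**
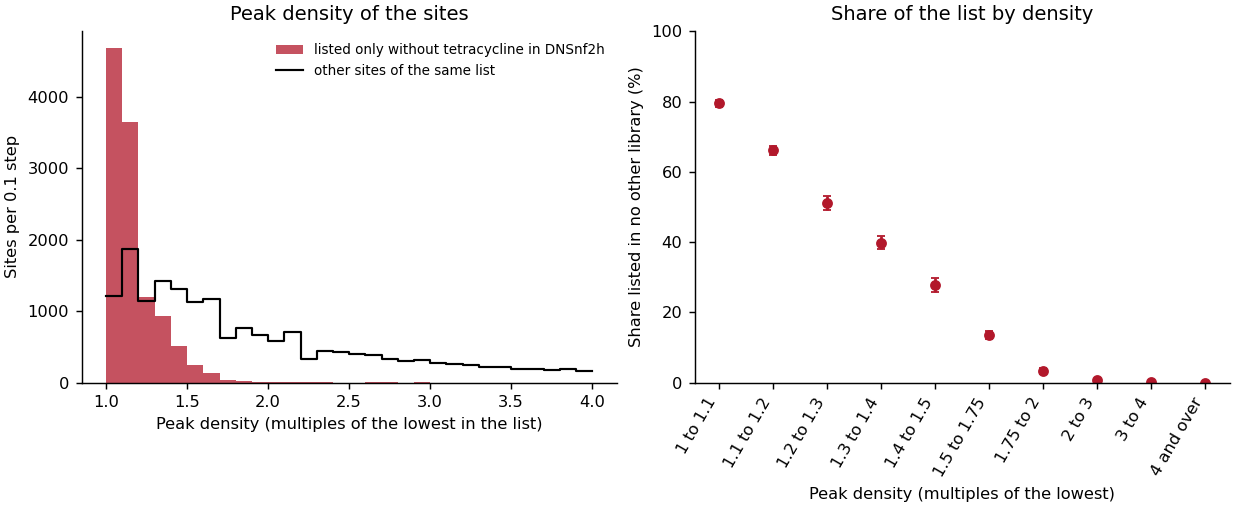
The left plot gives the number of sites per 0.1 step of peak density, in multiples of the lowest density of the induced DNSnf2h list, for the 11443 sites listed nowhere else (bars) and the 21173 other sites (line, shown up to 4). The right plot gives the share of all sites in each density class that were listed in no other library, with 95% Wilson intervals, which falls from 79.5% to 0%.

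How the sites stood against the other lists depended on the scale. As deposited, all 11443 were at or above the floors of DNSnf2h cells with tetracycline and of both DNCHD4 libraries. Against the floors of the DNBrg1 libraries, 5069 sites (44.3%) were at or above that of cells without tetracycline and 25 (0.218%) at or above that of cells with it. Against the parental floors the counts were 2655 (23.2%) without and 208 (1.82%) with tetracycline. At the sites listed in all 8 libraries, however, both DNSnf2h libraries had low densities, with medians of 21.6 without and 21.8 with tetracycline against 46.7 to 91.2 in the other 6 libraries. The floor was 37.4% of that median in DNSnf2h cells without and 36.8% with tetracycline, 19.7% and 21.1% in DNBrg1 cells, 5.84% and 8.82% in DNCHD4 cells, and 15.2% in both parental libraries. When densities were expressed relative to this median, all 11443 sites lay above the floors of all 7 other lists. This was fixed by the floors: at 37.4% that of the induced DNSnf2h list was the highest, so any site of that list passes. It thus says nothing particular about the sites listed nowhere else. On that scale the median site would have had a density of 36.7 in DNCHD4 cells without tetracycline, 7.20 times the floor there, and 27.8 in parental cells without tetracycline, 2.77 times the floor. Any site of the induced list at 1.125 times its floor would give the same values. Whether densities near the floor scale with those at shared sites was not tested, so nothing is read from them.

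Few of the sites stood clearly above the floor of the list with tetracycline of their own line. Against that floor, 30 of the 11443 sites (0.262%) were at least 2-fold higher. The floor stands in for a density that is not listed, so how many sites truly differed 2-fold is not known. Over all 40310 sites of the line the call was made for 1.93%, or for 2.07% with the median ratio of the 2 libraries set to 1. These 2 values use measured ratios at the 16220 sites listed in both libraries and the floor elsewhere. The choice of the sites used this contrast, so the shares for the sites and for the line are given side by side only. Of the 30 sites, 27 had a hotspot of the list with tetracycline within 50 kb, and 1 of these 27 was at least 2-fold above the lowest hotspot there. The numbering of the list with tetracycline, which runs in genome order with gaps, had a number missing between the listed neighbours of 36.4% of the sites, or 4155 of the 11421 that lay between 2 listed hotspots. Other sites of the induced list that were not in the list with tetracycline had a number missing in 23.7% of cases. The share was also higher for the sites listed nowhere else in the numbering of DNCHD4 cells without tetracycline, at 13.5% against 3.95%, of DNBrg1 cells without tetracycline, at 40.9% against 27.7%, and of parental cells without tetracycline, at 57.5% against 49.1%. In the other 3 lists with tetracycline the shares were close, at 50.6% against 48.3% in DNBrg1 cells, 55.8% against 56.2% in DNCHD4 cells and 66.1% against 67.3% in parental cells. Intervals between listed hotspots differ in length, and their part in these shares was not tested.

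The 10 highest sites outside dense hotspot clusters reached 16.7 to 23.8. A dense cluster was a stretch in which 10 or more hotspots of 1 list lay within 50 kb. On chromosome 2 from 177301973 to 177302564 the peak density was 23.8 in induced DNSnf2h cells (exact Poisson interval on tags 19.7 to 28.5), 2.95 times the floor. The repressed library listed nothing there and held 3 hotspots within 50 kb, the lowest at 9.52, so this was the site that stood at least 2-fold above its surroundings in that list. At a distance of 930 bp DNCHD4 cells without tetracycline had a hotspot of 32.3 that no other library listed. On chromosome 16 from 37928925 to 37929475 the density was 22.0 (18.04 to 26.5) and the nearest hotspot of the repressed library was 113.6 kb away. In DNCHD4 cells without tetracycline the same 50 kb on either side held 4 hotspots, with a lowest density of 8.42. Its mean density of 7.81 was the highest among all 11443 sites.

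Several of the other strong sites adjoined hotspots of the same or other libraries. On chromosome 6 from 66486373 to 66486965 the density was 22.2 (18.2 to 26.7), and 181 bp away lay a site listed in all 8 libraries, at 195.9 in induced and 192.2 in repressed DNSnf2h cells and at 755.6 and 864.9 in parental cells without and with tetracycline. The site on chromosome 5 from 143531263 to 143531851 reached 21.2 (17.3 to 25.6), and a site 1102 bp away was listed in both DNCHD4 and both parental libraries and in DNBrg1 cells without tetracycline, at 19.3 to 24.2. On chromosome 17 the sites from 13737772 to 13738309 and from 13742299 to 13742752 had densities of 18.9 and 16.9. The repressed library listed hotspots 146 bp from the first of them, at 15.9, and 740 bp from the other, at 17.6. A site on chromosome 4 from 145740071 to 145740733 reached 17.1, beside a hotspot 275 bp away at 11.2 in repressed DNSnf2h cells and 8.42 in DNCHD4 cells without tetracycline. The remaining 3 of the 10 were on chromosome 16 from 15263456 to 15264031, on chromosome 5 from 146477427 to 146478064 and on chromosome 6 from 66395809 to 66396193, at 17.7, 16.7 and 16.7. Of these 3, the site on chromosome 5 had no DNSnf2h hotspot within 50 kb in either state, and the repressed list came no nearer than 89.1 kb. Of the 30 sites, 1 more had no repressed hotspot within 50 kb, on chromosome 14 from 52009212 to 52009993 with a density of 16.1, and the repressed list, whose nearest hotspot was 90.5 kb away, had 3 numbers missing between its listed neighbours. It was picked out after its values were seen.

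Dense clusters held 164 of the sites (1.43%), against 11.6% of the other sites of the list and 6.07% of those matched on density as described below for width. They nevertheless held 17 of the 30 sites that were at least 2-fold above the repressed floor. Of these 17, 14 lay on chromosome 1, all in the clusters described next. No other site of chromosome 1 was among the 30. The 3 highest sites of all clusters lay in 1 cluster on chromosome 1 from 90111373 to 90206451. The site from 90120312 to 90120943 had 24.99, the highest value of any of the 11443 sites. The sites from 90165586 to 90166121 and from 90149922 to 90150470 had 23.8 and 21.2. In this cluster the induced library listed 19 hotspots, 9 of them listed nowhere else, with a lowest density of 16.7, and the repressed library listed 17 with a lowest density of 16.99. Neither list thus held a hotspot between its floor and 16.7 in this cluster. A further cluster on chromosome 1 from 173432395 to 173509029 held 8 of the sites, and the induced and repressed libraries listed 21 and 9 hotspots in it, the lowest at 13.7 and 15.1.

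The sites were narrow for their list. Their hotspots had a median width of 365 bp (interval of the median 361 to 370 bp, quartiles 284 and 445 bp), against 582 bp for the hotspots of the other sites. Width follows density, so the other sites were weighted to the same distribution of tags, which left a median of 414 bp. The shortest width in the list, 252 bp, was found for 1870 of the sites (16.3%), against 10.5% of the density-matched others. The next most common widths were 447 to 450 bp, with 95 to 104 sites each. Sites of 500 bp or more made up 9.91%, against 17.4% of the matched others. The sites were narrower in each density class that held any: the medians were 326 and 360 bp between 1 and 1.1 times the floor, and 549 and 632 bp between 2 and 3 times. Hotspots of 252 bp were the most peaked, with a mean density of 0.186 times the peak density, against 0.274 for those from 400 to under 500 bp. The widest site, on chromosome 13 from 66534485 to 66535769, covered 1285 bp at a peak density of only 8.26. The next were 1004 bp on chromosome 12 from 104711993 to 104712996, at 10.5, and 958 bp on chromosome 17 from 40419646 to 40420603, at 10.3.

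**Figure D2:**
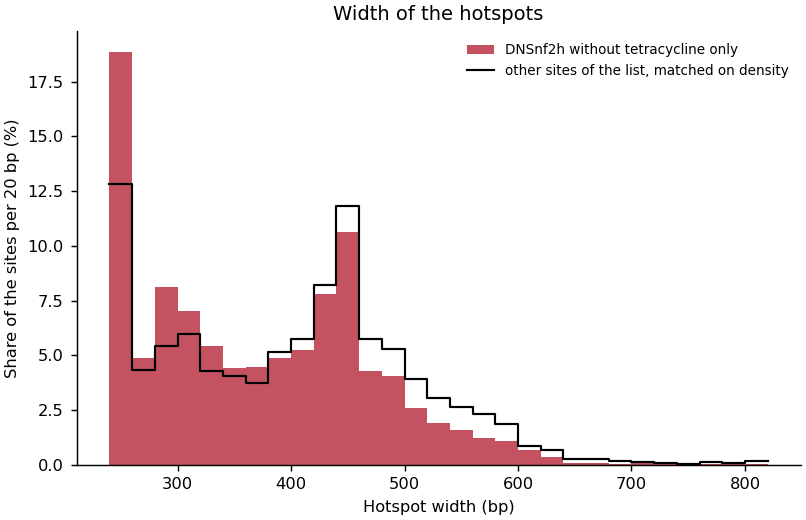
Share of sites per 20 bp of hotspot width in the induced DNSnf2h list, for the 11443 sites listed nowhere else (bars) and for the other sites weighted to the same tag counts (line, widths up to 820 bp). The sites listed nowhere else exceed the others at the shortest widths and fall below them from 380 to 740 bp, with medians of 365 and 414 bp.

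The sites lay far from chromatin that was open in every library. The median distance to the nearest of the 12592 sites listed in all 8 libraries was 125 kb (interval of the median 119.9 to 130.1 kb, quartiles 33.7 and 369 kb). It was 27.1 kb for the other sites of the list, measured to a site other than themselves, and 43.2 kb when these were matched on density. Within 10 kb of such a site lay 11.4% of the sites listed nowhere else, against 21.2% of the matched others. Within 100 kb the shares were 44.9% and 71.9%, and beyond 1000 kb they were 7.53% and 1.70%. Sites listed only in repressed DNSnf2h cells had a median of 99.6 kb, those listed only in DNCHD4 cells 124 kb without and 27.3 kb with tetracycline, those only in DNBrg1 cells 131 kb and 185 kb, and those only in parental cells 39.2 kb and 15.1 kb. Large distances were thus also found for sites of single lists in other lines.

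Distance also varied with density and width among the sites themselves. The 8788 sites less than 25% above the floor had a median of 151.9 kb, the 455 between 1.5 and 2 times had 50.98 kb, and the 30 at 2 times or more had 19.7 kb. Hotspots of 252 bp had a median distance of 84.6 kb and those of 500 bp or more 202 kb. The sites were also sparse within their list: the nearest other site of the induced list was 25.6 kb away at the median, against 14.7 kb for the matched others. The nearest further site listed nowhere else was 59.1 kb away at the median, and 12.8% had such a site within 10 kb. The nearest site of any other library was 9.504 kb away at the median, and 739 sites (6.46%) had one within 500 bp. For the matched others, measured to a site other than themselves, the values were 4.09 kb and 16.7%.

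**Figure D3:**
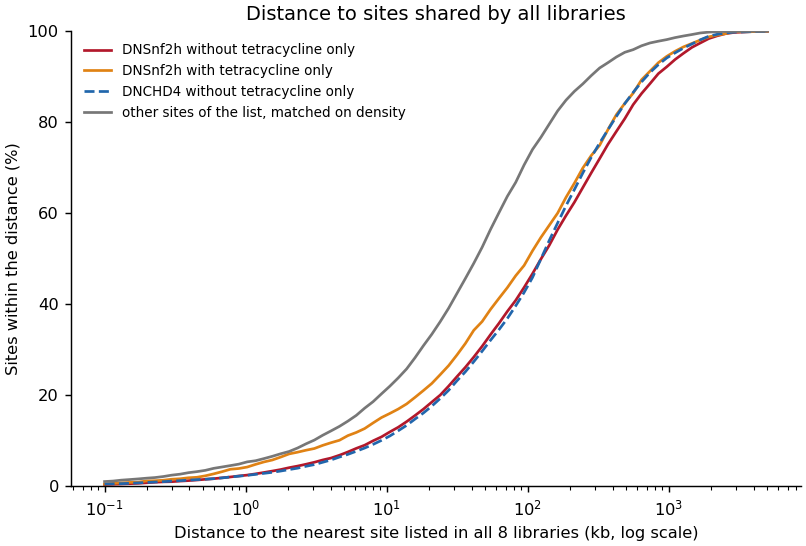
Cumulative share of sites within a given distance (kb, log scale) of the nearest site listed in all 8 libraries. The curve of the sites listed only in induced DNSnf2h cells runs close to that of the sites listed only in DNCHD4 cells without tetracycline, at 11.4% and 10.6% within 10 kb, and below that of density-matched sites of the same list, at 21.2%.

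The 3 farthest sites lay near each other on chromosome 15. Those from 18446670 to 18447137, from 18414073 to 18414534 and from 18266574 to 18267120 were 5692, 5659 and 5512 kb from a site listed in all 8 libraries, with densities of 9.88, 8.06 and 9.27. The nearest hotspot of the repressed list was 4053 to 4233 kb away from them, and 32 numbers were missing between its listed neighbours. Hotspots of other lines lay nearer. DNBrg1 cells without tetracycline listed a hotspot of 9.70 at 43560 and 76163 bp from the sites starting at 18446670 and 18414073. DNCHD4 cells without tetracycline listed a hotspot of 6.85 at 30737 bp from the site starting at 18266574. Numbers missing in the same way were 53 in DNCHD4 cells with tetracycline, and 28 and 23 in parental cells with and without tetracycline. Fewer were missing in DNBrg1 cells, at 4 without and 7 with tetracycline, and in DNCHD4 cells without tetracycline, at 4 or 1. The nearest were 3 bp away, on chromosome 4 from 140836511 to 140836928 and on chromosome 9 from 41396636 to 41396935, with densities of 10.7 and 9.07, and 7 bp away on chromosome 2 from 132072841 to 132073096, with 8.46. The shared sites beside them had 23.0, 19.5 and 9.27 in induced and 20.9, 26.7 and 10.3 in repressed DNSnf2h cells.

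At the limit of the merging rule, some sites were kept or lost by a few bases. On chromosome 2 from 160675744 to 160676006 a site of 8.46 was kept, 2 bp from a hotspot of 9.84 listed only in DNCHD4 cells with tetracycline. On chromosome 6 from 113575514 to 113575810 a site of 13.3 was kept at the same gap, beside hotspots of 15.96 in parental cells without and 13.95 in DNCHD4 cells with tetracycline. On chromosome 2 from 25283505 to 25283756 a site of 9.07 was kept, 3 bp from a site listed in the 6 libraries of the other lines at 15.8 to 47.1. Just outside, hotspots of the induced list on chromosome 2 from 147532321 to 147532761 and on chromosome 10 from 88015061 to 88015564 and from 109256205 to 109256635, at 8.26, 10.5 and 9.27, overlapped another library by 2 bp and were not kept. At the other limit, the 3 sites on the floor of 8.06 that came first in genome order lay on chromosome 1 and started at 5547565, 5964757 and 7818163, and nothing is listed below that density.

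The sites were unevenly spread over the chromosomes. Chromosome 1 held 1391 (12.2%, interval 11.6 to 12.8) and chromosome 3 held 1206 (10.5%, 9.99 to 11.1). Other sites of the list were found there in 7.49% and 5.92% of cases, and those matched on density in 4.64% and 3.77%. The matched shares are weighted to densities near the floor, where few other sites lay on these chromosomes. Between 1 and 1.1 times the floor, chromosomes 1 and 3 together held 4.14% of the other sites and 17.4% of those listed nowhere else. Between 1.2 and 1.3 times they held 13.1% and 29.7%. Of all sites of the list, 46.7% on chromosome 1 and 49.04% on chromosome 3 were listed nowhere else, against 23.1% on chromosome 11 and 15.1% on chromosome X. Per Mb of listed span there were 7.70 sites on chromosome 3, 7.17 on chromosome 1 and 7.06 on chromosome 17, against 0.480 on chromosome X, where 78 sites were found. Per 100 sites listed in all 8 libraries, there were 166 on chromosome 3 and 154 on chromosome 1, but 48.0 on chromosome 11 and 28.1 on chromosome X.

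The same chromosomes were prominent among sites listed only in repressed DNSnf2h cells. Of these 1865 sites, 12.98% lay on chromosome 1 and 11.3% on chromosome 3, against 0.429% on chromosome X. Among sites listed only in DNCHD4 cells without tetracycline, 8.14% lay on chromosome 1, 6.81% on chromosome 3 and 2.37% on chromosome X. Sites listed only in DNBrg1 cells lay on chromosome 3 in 5.99% of cases without and 6.93% with tetracycline, and on chromosome 1 in 11.5% and 11.1%. Sites listed only in parental cells, which have no dominant-negative protein, lay on chromosome 1 in 12.2% of the 368 cases without and 4.59% of the 109 cases with tetracycline, and on chromosome 3 in 7.34% and 4.59%. The share on chromosome 1 in parental cells without tetracycline was thus as high as that of the sites described.

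Density at other positions, the sites listed in all 8 libraries, also differed between chromosomes. The median log2 ratio of DNSnf2h over parental cells, centred on its median over all chromosomes, was 0.11 on chromosome 1 and 0.10 on chromosome 3 without tetracycline, and 0.19 and 0.24 with it. On chromosome X it was -0.19 without and -0.29 with tetracycline, and on chromosome 11 it was -0.09 and -0.18. Several chromosomes did not follow this order. Chromosome 13 had 0.12 and 0.35 but 30.9% of its list sites listed nowhere else. Chromosome 17 had -0.02 and -0.04 with 39.03%, chromosome 4 had 0.00 and 0.04 with 39.8%, and chromosome 18 had -0.07 and -0.17 with 36.01%. DNA copy number was not measured, and its part in the spread was not tested.

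**Figure D4:**
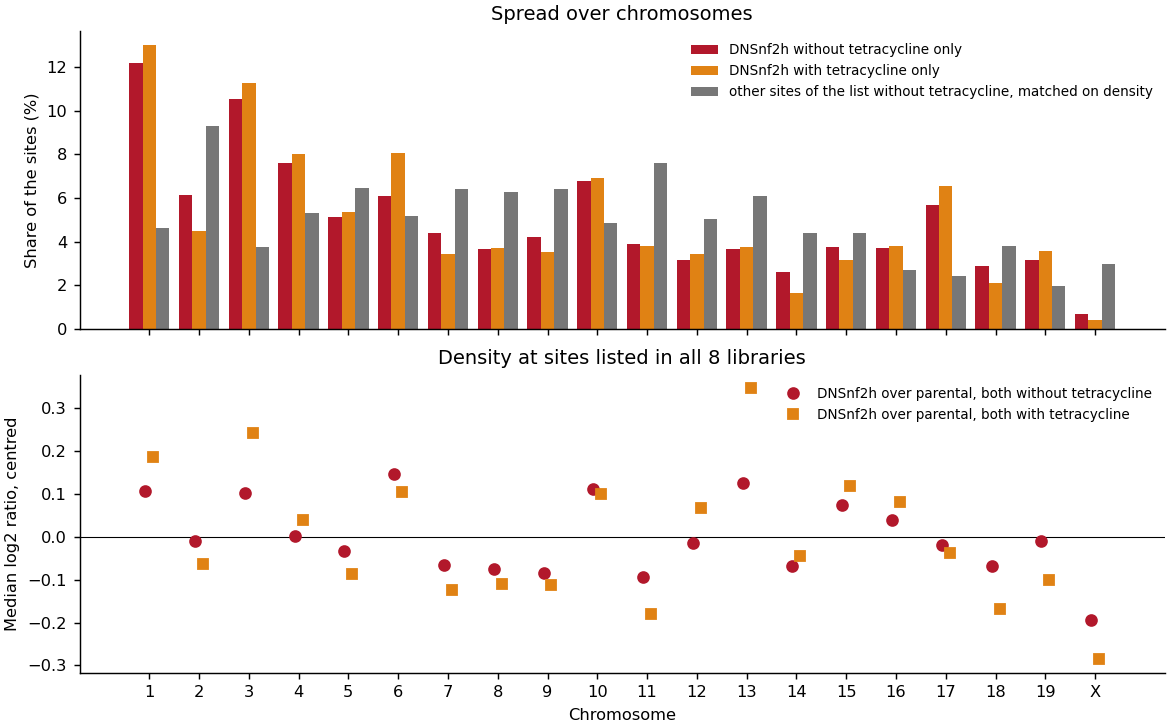
The upper plot gives the share of sites on each chromosome for those listed only in induced DNSnf2h cells, those listed only in repressed DNSnf2h cells and the other sites of the induced list weighted to the same tag counts. The lower plot gives the median log2 ratio of DNSnf2h over parental density at the sites listed in all 8 libraries, centred on the median over all chromosomes, with chromosomes 1 and 3 above 0 and chromosome X lowest in both states.

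The uneven spread continued within chromosomes. In windows of 10 Mb the number of sites ran to 101, with a median of 40, and 2 of the 275 windows with a site of the list held none. On chromosome 4, 54.4% of the list sites in the first 90 Mb were listed nowhere else (51.5 to 57.2), against 22.2% (19.8 to 24.9) from 90 to 160 Mb. The centred log2 ratio at sites listed in all 8 libraries was 0.14 in the first stretch and -0.12 in the other without tetracycline, and 0.37 and -0.17 with it. This border was set after the values were seen. Over 214 windows with at least 20 sites listed in all 8 libraries, the share listed nowhere else had a Spearman correlation of 0.51 with the log2 ratio without tetracycline and of 0.47 with that of the libraries with tetracycline, whose lists also had a part in choosing the sites. With the log2 ratio of induced over repressed DNSnf2h cells the correlation had the opposite sign, at -0.36. The median of that ratio was -0.09 in the 33 windows where at least 45% of the list was listed nowhere else and 0.05 in the 50 windows under 25%. The share had a correlation of -0.48 with the number of sites listed in all 8 libraries in the window. Those sites are themselves counted in the denominator of the share. The number of sites listed nowhere else had a correlation of the opposite sign with them, at 0.26. These correlations are over neighbouring windows of single libraries and describe those libraries only.

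**Figure D5:**
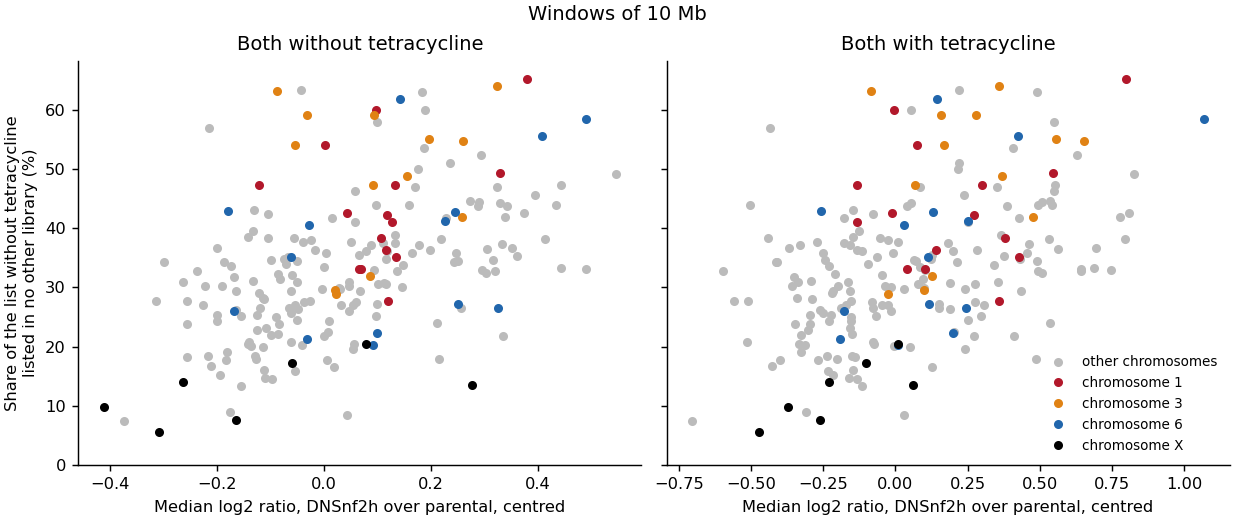
Each point is a window of 10 Mb with at least 20 sites listed in all 8 libraries, 214 in all. The vertical axis gives the share of the induced DNSnf2h list that was listed in no other library, and the horizontal axis the centred median log2 ratio of DNSnf2h over parental density without (left) and with (right) tetracycline, with Spearman correlations of 0.51 and 0.47.

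The stronger sites had a spread of their own. Of the 485 sites from 1.5 times the floor, 120 (24.7%) lay on chromosome 6, 80 on chromosome 1 and 50 on chromosome 16, and none on chromosome X. On chromosome 6 they were 17.2% of the sites listed nowhere else (14.6 to 20.2), against 1.14% (0.579 to 2.23) on chromosome 2. Of the 14234 other list sites from 1.5 times the floor, 5.47% lay on chromosome 6. These were denser and not matched: 9892 of them reached 2 times the floor, against 30 of the 485. On chromosome 6, 7 of 15 windows of 10 Mb, chosen after their values were seen, held 114 of the 120: those from 0 to 20, 60 to 70, 100 to 120 and 130 to 150 Mb. In them 48.7% of the list sites were listed nowhere else, against 26.2% in the other 8 windows. The other sites of the list were also denser there, at a median of 2.20 times the floor against 1.80 times. The same 7 windows held 120 of the 150 sites of chromosome 6 that only repressed DNSnf2h cells listed, 840 of the 1778 that only DNCHD4 cells without tetracycline listed and 29 that only parental cells without tetracycline listed, against 10 such parental sites in the other 8 windows. The centred log2 ratio of DNSnf2h over parental cells was 0.25 in the 7 windows and 0.04 in the other 8 without tetracycline. With tetracycline it was 0.29 and 0.01. On chromosome 16, 32 of the 50 stronger sites lay in the first 20 Mb. In that stretch the ratio was -0.07 without and -0.10 with tetracycline, against 0.11 and 0.17 in the rest of the chromosome. This stretch too was picked after its values were seen. In it 32.8% of the list sites were listed nowhere else, against 35.6% in the rest of the chromosome.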

How the data were processed

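Members and classes were chosen with earlier results of these data known. The submitters' processing notes name CASAVA 1.6 and build mm9, for fragments of 100 to 500 bp, per the labels' protocols. The calling, filtering and scaling of hotspots, not given in the sources used here, could set which sites are listed. Each hotspot was deposited with its peak and average tag density (signal, the coverage by tags), and the authors also gave a z-score (score) and a p-value, per the file headers. The score and the p-value are the authors' own and were not used. Peak densities were turned into tags by the step of each library, and 100% were whole within 0.05 tags.

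Coordinates are as deposited. Hotspots of the 8 lists were merged at 1 bp of overlap. Widths are those of single hotspots, and distances run between edges. Matched values weight the other sites of the induced DNSnf2h list to the tag counts of the sites described, using 13019 sites with a tag count in common. Intervals are 95% Wilson, exact Poisson on tags and binomial order statistics for medians, and cover counting error only. Tags carry no molecular identifiers, so they need not be separate molecules. Sites to be named were the highest outside and inside dense clusters, the nearest, farthest and widest, and those at the limits of the rule. Merging and distances were tested on simulated data. Python 3.11.15 was used with scipy 1.17.1 for intervals, pandas 2.3.3 and numpy 2.4.6 for tables, and matplotlib 3.10.9 for plots.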

Additional observations from a re-analysis of the deposited data

How the results depend on the processing

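No paired analysis was possible because the results describe sites listed in 1 library, which have no listed density in the other 7, and come from no test. Of 52 values recomputed under 10 settings, 27 stayed within the interval of the reported value or, for counts, within 1.5 times it. Merging at an overlap of 100 bp moved none of the 7 results beyond that. The density threshold mattered most. With hotspots at least 25% above the lowest density of their own list there were 2748 sites (13.5% of the list). Their median was 1.08 times the raised floor, their median width 437 bp, their median distance 75.1 kb and the chromosome 1 share 16.96%. Of these sites, 9 were 2-fold above the floor of the repressed list. That floor was raised in the same way, so this count has a higher threshold than the others. Keeping sites from 1.5 times the floor left 485 (3.30% of such list sites), at a median of 1.6 times the floor, 480 bp and 47.3 kb, and the leading chromosome became 6, with 24.7%. With the induced list cut to its 24890 strongest hotspots, as many as the repressed list holds, a setting chosen after seeing the data, 4848 sites (20.3%) remained unlisted elsewhere, at a median of 1.09 times the raised floor of 9.27, 410 bp and 78.2 kb, with 16.2% on chromosome 1. Merging across gaps of up to 500 bp gave a share of 33.96% and a distance of 132 kb. Without the DNCHD4 library without tetracycline the share was 36.6%. Without dense clusters the share was 37.6%, and 13 sites were 2-fold above the repressed floor. With reference sites listed in at least 7 libraries the distance was 88.9 kb. Against 76.7% of the other sites of their list, 12.1% of the sites described (1382) had a tag interval above the floor of that list. No list gives a density for a position it does not list, so the densities of these sites in the other libraries are not known here.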
